A study of Mus musculus with 4 samples.

Results

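Type I interferon response genes were followed in CD11b+ cells of the mouse spleen after repeated social threat. The 37 genes, chosen by symbol, encode the receptor chains and signal transducers of type I interferon, nucleic acid sensors and genes that interferon induces. Of these, 35 were read by a probe set with exactly 1 gene symbol, out of 18193 genes measured in all, and each was represented by its brightest probe set. Rigi was listed on the platform under its older symbol Ddx58. Isg15 was read only by a probe set shared with Gm9706, and Ifi44 was not analysed here.

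The control group, labelled LowThreat, consisted of 2 pools, and the social threat group, labelled HighThreat, also of 2 pools. Each pool held RNA of 5 mice and was hybridised to 1 Affymetrix MOE430 2.0 array. No label gave strain, age, sex, genetic modification, infection or an interferon treatment, and both groups were described only by their environment. Cells were isolated by CD11b, the integrin alpha M chain that neutrophils, monocytes, macrophages and part of the dendritic, NK and B cells carry on their surface. Pooling averages over the 5 mice of a pool, so the spread between single mice cannot be estimated. The p-values below rest on the spread between pools, which was estimated for each probe set with help from the other probe sets.

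Type I interferons are secreted when cells sense foreign or misplaced nucleic acid. They bind a receptor of the chains IFNAR1 and IFNAR2, whose kinases TYK2 and JAK1 activate STAT2 and its partners. The complex enters the nucleus, binds interferon-stimulated response elements in promoters and induces antiviral genes. In the spleen a low tonic interferon signal keeps many of these genes on without infection, and plasmacytoid dendritic cells are a main source when a virus is met.

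Of the 35 measured genes, 15 fell and 1 rose under social threat by limma (adjusted p under 0.05 after Benjamini-Hochberg adjustment over all 45037 probe sets), and 19 were not called. Over all genes 11.7% were called lower and 9.4% higher, and among the 9731 genes within the members' range of mean level the shares were 19.7% and 15.3%. That range ran from 4.92 to 11.93. Its lower end was set by the dim Mx2 alone, so it takes in genes dimmer than every other member. The members called lower made up 42.9% of those measured. The falls were small, from 1.14-fold for Ifi35 to 1.73-fold for Mx1, and 0 members differed by 2-fold or more. The median difference of social threat minus control was -0.22 on the log2 scale, against -0.02 over all genes and -0.04 over genes in the same range of level. In 28 of 35 members the difference was below 0.

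Each pool showed the same order. The median deviation of the members from their mean over the 4 pools was 0.12 and 0.10 in control pools 1 and 2, and -0.10 and -0.11 in social threat pools 1 and 2. Both social threat pools lay below both control pools for 24 members, as they did for 32.1% of all genes, and above both for 5, as for 26.1% of all genes. The pools overlapped for 6 members. They overlapped for none of the 16 that were called, which the call itself largely fixes with 2 pools per group. The number of falls depended on single pools and on the variance model: 8 members were called lower without the variance trend, where 7.62% of all genes were, 7 members were called lower without social threat pool 1 and 6 without social threat pool 2, where 5.61% and 5.02% of all genes were. Ifnar1, Ifih1, Ifit2, Parp9, Parp14, Ifi35, Rtp4 and Xaf1 lost their call when either social threat pool was left out, and Ifi27l2a without social threat pool 2. Parp9 and Parp14 lost it without control pool 1 too. Without the variance trend the calls of Ifnar1, Ifih1, Parp9, Parp14, Ifi35, Ifi27l2a and Rtp4 were lost, and Parp9 was also not called after median centring. With the mean of all probe sets of a gene Rtp4 and Xaf1 were not called. Ifit3, Mx1, Rsad2, Bst2, Usp18 and Lgals3bp, 6 members in all, were called lower under each of the 12 settings tried.

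**Figure D1:**
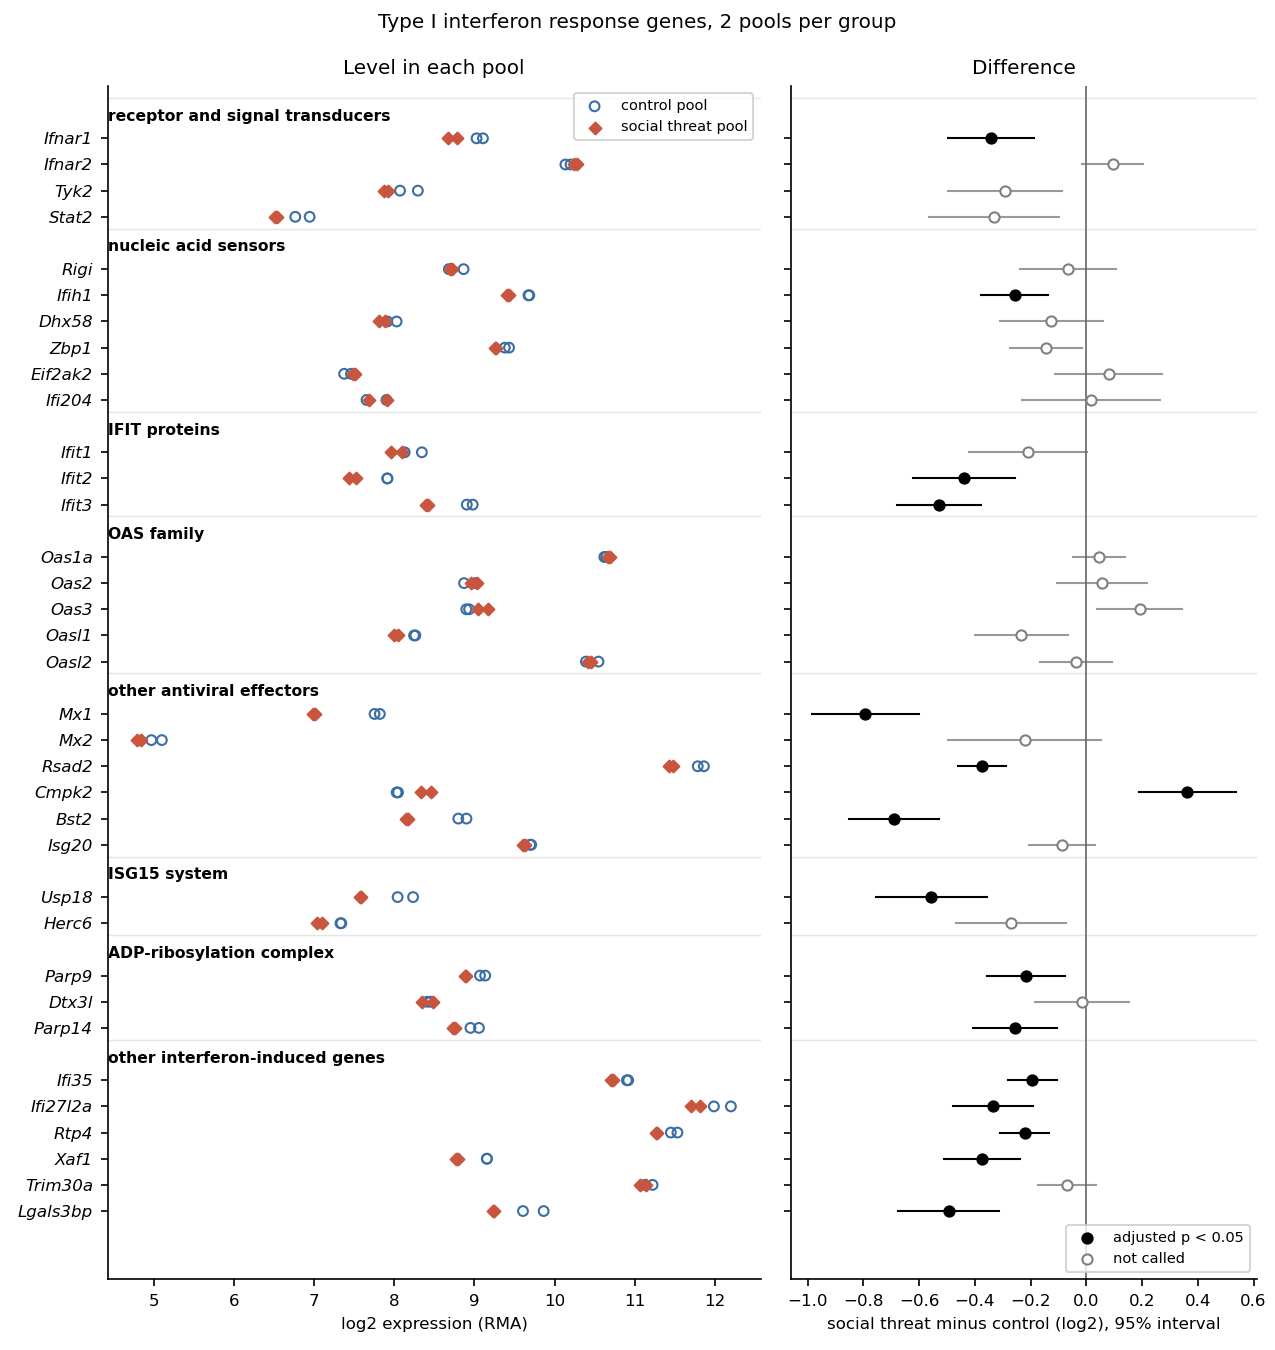
Left, log2 expression of each measured member in the 2 control pools (open circles) and the 2 social threat pools (diamonds); right, the log2 difference of social threat minus control with its 95% interval from limma, filled where the adjusted p was under 0.05. The 15 filled points left of 0 are the members that fell, led by Mx1 at -0.79 and Bst2 at -0.69, and the 1 filled point right of 0 is Cmpk2 at 0.36.

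The promoters show which members carry the letters that the interferon-activated STAT and IRF complex is known to bind. RefSeq promoters of build GRCm38.p6, from 250 bases before to 50 after the start site, were given for 26 of the 37 genes. The core of the interferon-stimulated response element, searched on both strands as GAAA, any 2 bases and GAAA again, lay in promoters of 12 of these 26 genes (46.2%) and in 3.99% of all 27025 genes with a promoter in the table (3.44% of all 32851 promoters of this length). For 9 genes a core lay wholly before the start site, and these stretches are printed with 15 flanking bases, or fewer at the start site, on the strand of the gene. Capitals mark the cores, and TTTC, any 2 bases and TTTC is the core on the other strand.
Isg15, chr4:156200860-156200911, minus strand: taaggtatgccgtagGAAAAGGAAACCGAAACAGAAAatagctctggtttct
Bst2, chr8:71537572-71537617, minus strand: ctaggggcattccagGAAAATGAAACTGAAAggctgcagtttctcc
Ifit3, chr19:34583358-34583431, plus strand: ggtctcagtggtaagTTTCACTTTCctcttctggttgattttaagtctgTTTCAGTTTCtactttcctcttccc
Ifit1, chr19:34640770-34640828, plus strand: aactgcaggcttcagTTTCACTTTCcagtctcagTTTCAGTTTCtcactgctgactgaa
Rsad2, chr12:26456548-26456587, minus strand: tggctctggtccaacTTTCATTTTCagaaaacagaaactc
Oas1a, chr5:120907526-120907560, minus strand: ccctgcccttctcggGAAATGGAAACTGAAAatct
Oas3, chr5:120777710-120777749, minus strand: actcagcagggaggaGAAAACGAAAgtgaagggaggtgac
Stat2, chr10:128270261-128270300, plus strand: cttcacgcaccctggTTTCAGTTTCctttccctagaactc
Trim30a, chr7:104465205-104465244, minus strand: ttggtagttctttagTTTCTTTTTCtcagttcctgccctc

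The core was found in members that fell and in members that were not called. Among members with a promoter in the table it lay in 4 of 9 that fell (Bst2, Ifit3, Rsad2 and Ifih1). It also lay in 7 of 15 measured members that did not fall, among them Oas1a, Oas3 and Ifit1. Mx1, Usp18, Parp9, Parp14, Ifi27l2a and Rtp4 fell but had no promoter in the table. Dhx58, Zbp1, Ifi204, Oas2 and Mx2, which were not called, had none either. Isg15 held 3 overlapping cores, and Bst2 and Oas1a held 2 each that overlap. The gamma-activated sequence core, TTC, any 3 bases and GAA, which reads the same on both strands, lay in 8 of the 26 genes (30.8%) against 9.55% of all genes (8.3% of all promoters), and 1 of its matches, in Bst2, overlapped an interferon-stimulated response element core. The gamma-activated sequence core lay in 4 of 9 members that fell and in 4 of 15 measured members that did not. These matches are descriptions of letters in a fixed window, and binding was not measured.

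**Figure D2:**
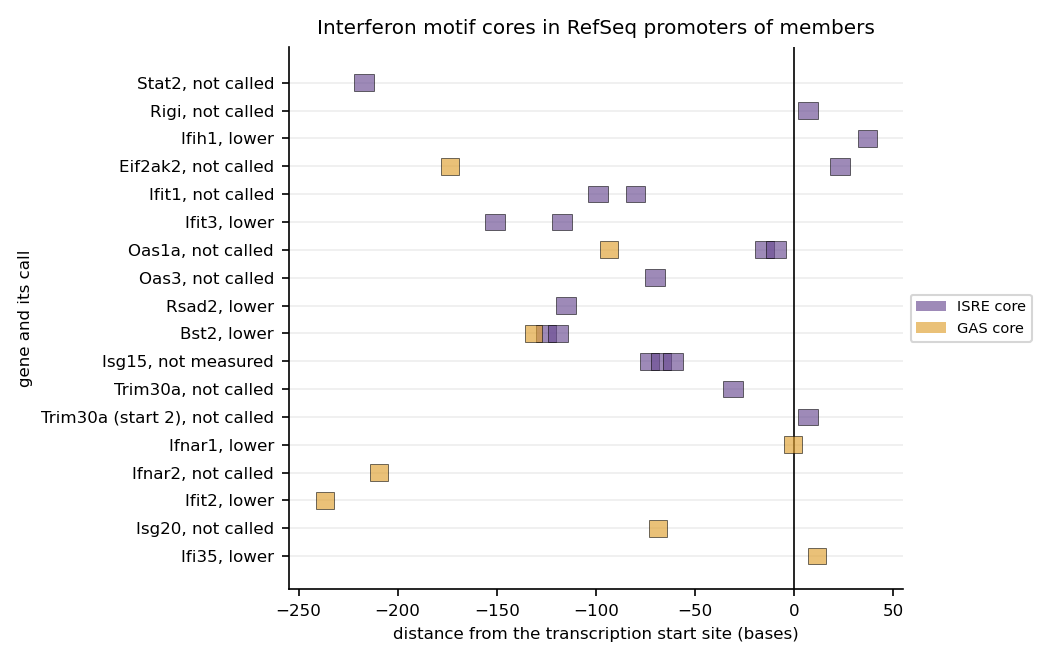
Position of each motif core relative to the transcription start site, in bases, for members with at least 1 match in the RefSeq promoter window, with the expression call of the gene beside its name. Cores of the interferon-stimulated response element stand before the start site in Bst2, Ifit3 and Rsad2, which fell, and equally in Ifit1, Oas1a and Oas3, which were not called.

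At the receptor, the 2 chains differed in their calls. Ifnar1, which encodes the chain that binds TYK2, stood at 9.11 and 9.03 in the control pools and at 8.67 and 8.78 under social threat on the log2 scale. It fell by 0.34 (SE 0.07, limma adjusted p = 0.00808), with no overlap between the groups. Ifnar2, the chain with the higher affinity for interferon, stood at 10.14 and 10.20 in controls and at 10.28 and 10.25 under social threat. Its brightest probe set was not called although its groups did not overlap (difference 0.09, 95% interval -0.01 to 0.20), while 1 of its 3 probe sets, at 7.17 and 7.07 in controls and 7.53 and 7.62 under social threat, was called higher by 0.46 (SE 0.09).

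The transducers behind the receptor had lower values that missed the threshold. Tyk2, the kinase bound to IFNAR1, stood at 8.29 and 8.07 in controls and 7.87 and 7.91 under social threat (difference -0.29, SE 0.09, limma adjusted p = 0.062). Stat2 stood at 6.76 and 6.94 in controls and at 6.50 and 6.54 under social threat (difference -0.33, SE 0.10, limma adjusted p = 0.0622). In both genes all social threat values were below all control values. The difference of Tyk2 was -0.18 without control pool 1 and -0.403 without control pool 2, where it was called lower, and -0.193 as the mean of its probe sets. Stat2 was called lower without control pool 1 (-0.421) and as the mean of its probe sets (-0.562). Both were called lower with dim probe sets left out and with adjustment over 1 probe set per gene. The dimmer of the 2 probe sets of Stat2 was called lower, at 6.54 and 6.30 in controls against 5.63 in each social threat pool, a difference of -0.79 (SE 0.12).

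Among the nucleic acid sensors 1 of 6 genes fell (16.7%), against 11.7% of all genes and 19.7% of genes in the members' range of mean level. Ifih1, which encodes the long double-stranded RNA sensor MDA5, stood at 9.67 and 9.69 in controls and at 9.44 and 9.41 under social threat, a fall of 0.26 (SE 0.05, limma adjusted p = 0.00945). Rigi, the sensor of short RNA with a phosphorylated end, had a difference of -0.07 (95% interval -0.24 to 0.11) and overlapping pools. Dhx58, which encodes the related helicase LGP2, was not called by its brightest probe set (difference -0.13), and of its 3 probe sets a dimmer one was called lower (difference -0.45, SE 0.11).

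The other sensors were not called. Zbp1, a sensor of Z-form nucleic acid, stood at 9.38 and 9.43 in controls and 9.26 and 9.27 under social threat, a gap without overlap that missed the threshold (difference -0.14, SE 0.06, limma adjusted p = 0.139). Eif2ak2, which encodes the RNA-activated kinase PKR, differed by 0.08 (95% interval -0.11 to 0.27). Ifi204, a member of the DNA-binding p200 family, differed by 0.02 (95% interval -0.23 to 0.27), and its pools were spread as widely within the groups as between them. A probe set shared by Ifi204 with Mndal, Ifi211 and Ifi205 had a difference of -0.20 (SE 0.08) and was not called either.

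The IFIT genes encode proteins with tetratricopeptide repeats that bind viral RNA and block its translation. Ifit3 stood at 8.90 and 8.98 in controls and at 8.42 and 8.40 under social threat. It fell by 0.53 (SE 0.07, limma adjusted p = 0.000544). Ifit2 stood at 7.91 in both control pools and at 7.52 and 7.43 under social threat, and fell by 0.44 (SE 0.08, limma adjusted p = 0.00517). For both genes the gap between the groups was several times the gap between pools of a group. Ifit1, whose promoter holds 2 cores, stood at 8.34 and 8.13 in controls and at 7.96 and 8.10 under social threat, a difference of -0.21 (95% interval -0.42 to 0.00) that was not called. It depended on the control pools, with -0.102 when control pool 1 was left out and -0.317, called lower, when control pool 2 was.

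The OAS family gave no call in the main comparison. OAS enzymes make 2-prime,5-prime-linked oligoadenylates that switch on RNase L, while the OAS-like proteins do not all keep this activity. In limma 0 of 5 members were called, with 1 lower and 1 higher at an unadjusted p under 0.05. The shares called over all genes were 11.7% lower and 9.4% higher. Oas1a stood at 10.62 and 10.64 in controls and at 10.70 and 10.66 under social threat, a difference of 0.05 (95% interval -0.05 to 0.14) without overlap of the pools. Oas2 differed by 0.06 (95% interval -0.10 to 0.22) and Oasl2 by -0.04 (95% interval -0.17 to 0.09), both with overlapping pools. Oas3 stood at 8.90 and 8.93 in controls and higher, at 9.17 and 9.04, under social threat, a difference of 0.19 (SE 0.07, limma adjusted p = 0.0959). Oasl1, an inhibitor of Irf7 translation, had lower values under social threat, with 8.26 and 8.24 in controls against 7.99 and 8.05 (difference -0.23, SE 0.07, limma adjusted p = 0.0643). Oasl1 was called lower under 3 of the 11 alternatives and Oas3 higher under 1. The difference between the IFIT and OAS genes was not tested.

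Among the other antiviral effectors 3 of 6 genes fell (50%) and 1 rose. The shares over all genes were 11.7% lower and 9.4% higher, and 19.7% and 15.3% in the members' range of mean level. Mx1, a dynamin-like GTPase that blocks influenza viruses in the nucleus, stood at 7.82 and 7.75 in controls and at 7.01 and 6.98 under social threat. It fell by 0.79 (SE 0.08, limma adjusted p = 0.000201), the most of the 35 members. Its cytoplasmic paralog Mx2 was dim, with 5.10 and 4.96 in controls and 4.83 and 4.79 under social threat, close to the median over all probe sets of 4.42. Its difference of -0.22 (95% interval -0.50 to 0.05) was not called, and RMA values give no detection call, so Mx2 cannot be separated from background here. Isg20, a 3-prime exonuclease, differed by -0.09 (95% interval -0.20 to 0.03).

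Bst2 encodes tetherin, which holds budding virus at the cell surface and is also a marker of plasmacytoid dendritic cells and plasma cells in mice. It stood at 8.90 and 8.80 in controls and at 8.18 and 8.14 under social threat, a fall of 0.69 (SE 0.07, limma adjusted p = 0.000158). Of the plasmacytoid dendritic cell markers other than Bst2, 5 of 8 measured genes fell and 0 rose (2 had overlapping pools), with a median of -0.53. Among all genes 11.7% fell and 9.4% rose. Their mean level was 6.62 and 6.59 in control pools and 5.969 and 6.002 under social threat. Siglech, a defining marker, was dim at 5.46 ± 0.01 in controls and 5.25 ± 0.03 under social threat (SD, n = 2 pools). It was not called, although both social threat pools lay below both control pools. Ccr9, Clec10a and Spib, which other leukocytes express too, fell by 1.28, 1.26 and 1.13. Pacsin1, near the median of 4.42 over all probe sets, and Tcf4 fell by 0.55 and 0.51. The part of these cells in the fall of Bst2 was not tested.

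Rsad2 and Cmpk2 are adjacent genes on chromosome 12, with no other protein-coding gene of the RefSeq table between them. Rsad2 encodes viperin, a radical SAM enzyme that makes a chain-terminating nucleotide, and Cmpk2 encodes a mitochondrial nucleotide kinase. Rsad2 stood at 11.87 and 11.79 in controls and at 11.47 and 11.43 under social threat, and fell by 0.37 (SE 0.04, limma adjusted p = 0.000134). Cmpk2 went the other way, from 8.04 and 8.03 in controls to 8.34 and 8.46 under social threat, and rose by 0.36 (SE 0.08, limma adjusted p = 0.0105). The groups overlapped for neither gene. All 3 probe sets of Rsad2 had differences below 0, and 2 were called lower. Both probe sets of Cmpk2 had differences above 0, the dimmer at 0.21 (SE 0.11) without a call. The rise of Cmpk2 was not called without social threat pool 1, without social threat pool 2 or without the variance trend.

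Other neighbouring members differed in their calls as well. Parp14, Dtx3l and Parp9 follow each other on chromosome 16. Parp9 and Dtx3l proteins form a complex that ubiquitinates and ADP-ribosylates its targets, and Parp14 is a mono-ADP-ribosyltransferase. Parp14 stood at 9.06 and 8.95 in controls and at 8.76 and 8.73 under social threat, a fall of 0.26 (SE 0.07, limma adjusted p = 0.029). Parp9 stood at 9.13 and 9.07 in controls and at 8.88 and 8.89 under social threat, a fall of 0.22 (SE 0.06, limma adjusted p = 0.0427). Dtx3l, which lies between them, had overlapping pools and a difference of -0.02 (95% interval -0.18 to 0.15). On chromosome 19 the adjacent genes Ifit2 and Ifit3 both fell. On chromosome 5 neither the adjacent pair Oasl2 and Oasl1 nor the adjacent pair Oas2 and Oas3 was called.

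The ISG15 system attaches the ubiquitin-like protein ISG15 to other proteins. Usp18, the protease that removes ISG15 and also limits signalling at IFNAR2, stood at 8.23 and 8.04 in controls and at 7.57 and 7.59 under social threat. It fell by 0.56 (SE 0.09, limma adjusted p = 0.00217). The probe set shared by Isg15 and Gm9706 stood at 9.14 and 9.13 in controls and at 8.72 and 8.71 under social threat and was called lower by 0.42 (SE 0.06, limma adjusted p = 0.00128), but it cannot be assigned to 1 of the genes and is in no count here. Herc6, the ISG15 ligase of the mouse, had values of 7.34 and 7.33 in controls and 7.09 and 7.03 under social threat (difference -0.27, SE 0.09, limma adjusted p = 0.0722), and 1 of its 4 probe sets was called lower.

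Of the remaining interferon-induced genes, 5 of 6 measured fell (83.3%), against 11.7% of all genes and 19.7% in the members' range of mean level. Lgals3bp, a secreted glycoprotein that binds galectin-3, stood at 9.61 and 9.86 in controls and at 9.24 in both social threat pools, and fell by 0.49 (SE 0.08, limma adjusted p = 0.00254). Xaf1, an antagonist of the apoptosis inhibitor XIAP, stood at 9.16 and 9.15 in controls and at 8.77 and 8.79 under social threat, and fell by 0.38 (SE 0.06). As the mean of its probe sets the difference of Xaf1 was -0.085 and was not called. That mean includes a probe set below the median of 4.42 over all probe sets. It stood at 3.755 and 3.98 in controls and at 4.14 and 4.00 under social threat. Ifi27l2a, encoding a small membrane protein, stood at 12.20 and 11.99 in controls and at 11.82 and 11.71 under social threat, and fell by 0.34 (SE 0.06). In each of these genes the groups were apart.

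The other falls in this group were smaller. Rtp4, a chaperone of G protein-coupled receptors, stood at 11.54 and 11.45 in controls and at 11.28 and 11.27 under social threat, a fall of 0.22 (SE 0.04). As the mean of its probe sets its difference was -0.176 and was not called. Ifi35 stood at 10.92 and 10.90 in controls and at 10.73 and 10.71 under social threat, a fall of 0.19 (SE 0.04), and all 3 of its probe sets were called lower. Trim30a, a tripartite motif protein that dampens Toll-like receptor signalling, had overlapping pools and a difference of -0.07 (95% interval -0.17 to 0.03). A further probe set shared by Trim30a and Trim30d differed by -0.11 (SE 0.07) and was not called.

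**Figure D3:**
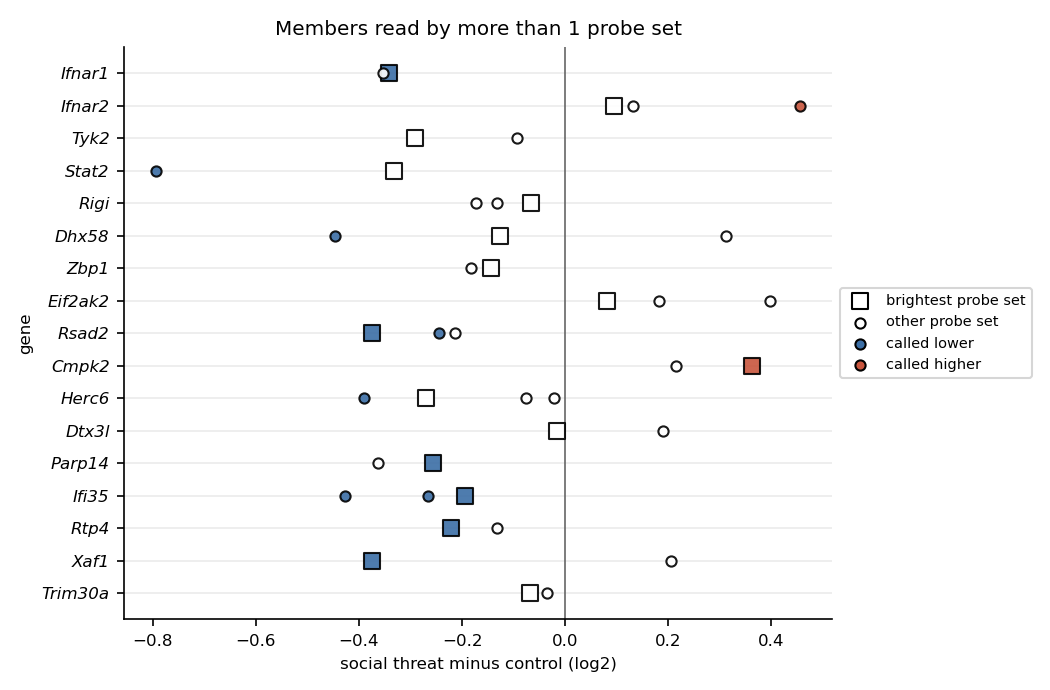
Log2 difference of social threat minus control for every probe set of the 17 members read by more than 1, with the brightest probe set as a square, other probe sets as circles and the fill showing the limma call. Calls of a gene never went both ways, and Ifnar2, Stat2, Dhx58 and Herc6 had a call only in a dimmer probe set.

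Probe sets of 1 gene had opposite signs in 3 of these members, each time without an opposite call. Beside its called fall, Xaf1 had a dimmer probe set at 0.20 (SE 0.13), which was not called. The dimmest probe set of Dhx58 stood at 0.31 (SE 0.12) and the dimmer of Dtx3l at 0.19 (SE 0.13), neither called. In every pool the levels of these Xaf1 and Dhx58 probe sets were below the median of 4.42 over all probe sets. RMA values cannot separate them from background.

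Other genes of the pathway were called in both directions. Of 29 measured genes on a list of 38 ligands, sensors, adaptors, kinases, transcription factors and inhibitors, 5 fell (17.2%) and 1 rose, with a median of -0.10, against 11.7% lower and 9.4% higher over all genes. Without the ligands 23.8% of the 21 measured fell, against 19.7% of genes in the range of level of the members. None of the 8 interferon genes that a single-symbol probe set read, Ifnb1 and 7 of the alpha family, was called by limma, with 0 at an unadjusted p under 0.05. Their values did not exceed 4.63 in any pool, near the median of 4.42, and RMA values cannot separate them from background. The genes of the receptor kinase Jak1 and of the inhibitors Socs1, Socs3, Ptpn6 and Ptpn11 were not called in limma either, with 0 of 5 at an unadjusted p under 0.05, although Jak1 and Socs3 were called lower as the mean of their probe sets and Socs3 without control pool 1.

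Among genes that induce interferon, 3 of 11 fell (27.3%) and 1 rose. In the members' range of mean level 19.7% of genes were called lower and 15.3% higher. Tlr7, the endosomal receptor of single-stranded RNA, stood at 9.50 and 9.59 in controls and at 9.16 and 9.18 under social threat, a fall of 0.38 (SE 0.06). Unc93b1, which carries nucleic acid-sensing Toll-like receptors to endosomes, fell by 0.34, from 10.996 and 10.993 to 10.64 and 10.66. Ticam1, the adaptor TRIF, fell by 0.33, a call lost without the variance trend, without control pool 1 and without either social threat pool. Ikbke, a kinase that activates interferon regulatory factors, moved the other way, from 7.19 and 7.06 in controls to 8.15 and 8.01 under social threat, and rose by 0.95 (SE 0.09, limma adjusted p = 9.68e-05). Of the transcription factors 2 of 5 measured fell, with Irf7 lower by 0.48 (SE 0.05) and Irf1 by 0.41 (SE 0.04). Irf9, Irf3 and Irf2 were not called. Both social threat pools lay below both control pools for all 5, as they did for 32.1% of all genes.

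Families induced by interferon gamma or by either interferon also held members that fell. Of 10 measured interferon-gamma-induced GTPase genes, which guard against pathogens in vacuoles, 4 fell (40%) and 0 rose in limma, with a median of -0.32. At an unadjusted p under 0.05 in limma 8 were lower and 0 higher. Iigp1 fell by 0.82, Gbp8 by 0.63, Ifi47 by 0.43 and Igtp by 0.38. Of 12 measured genes of MHC class I processing 7 fell (58.3%) and 0 rose in limma (9 and 0 at an unadjusted p under 0.05). Their median was -0.19, led by Nlrc5, the class I transactivator, at -0.55. The share called lower was 42.9% of the type I interferon response genes, 11.7% of all genes and 19.7% of genes in the members' range of mean level. No test set these families against the type I interferon response genes.

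Markers of several cell types moved with the groups over a wider range than the members did (-0.79 to 0.36). Those of mature neutrophils (-0.20 to 0.58) and of red pulp macrophages (-1.19 to -0.07) did not. These are bulk pools, so fewer cells of a type and less RNA per cell cannot be told apart. The purity of the isolation was not given in the labels. A difference between the groups in carry-over of unselected cells cannot be told apart from these either. T cells and erythroid cells are not among the CD11b carriers named above, and the source of their markers here was not tested. For the counts below, 11.7% of all genes fell and 9.4% rose. All 8 measured markers of conventional dendritic cells fell (median -1.01), as did B cell markers for 8 of 9 (median -1.11), T cell markers for 9 of 9 (median -1.003) and NK cell markers for 7 of 9 (median -0.71). Red pulp macrophage markers fell for 8 of 10 (median -0.47) and patrolling monocyte markers for 7 of 10 with 1 rise (median -0.49). Immature neutrophil markers rose for 9 of 9 (median 3.58), erythroid markers for 6 of 9 (median 1.24) and proliferation genes for 8 of 9 (median 2.12). Mature neutrophil markers rose for 5 and fell for 2 of 8 (median 0.20), and classical monocyte markers rose for 2 and fell for 3 of 7 (median -0.13).

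The mean marker levels moved in the same way in both pools of a group. The mean log2 level of the B cell list was 8.35 in both control pools and 7.39 and 7.35 under social threat, and that of the conventional dendritic cell list was 8.494 and 8.502 against 7.41 and 7.33. The immature neutrophil list stood at 8.71 and 8.61 in controls and at 11.56 and 11.51 under social threat. Over the 35 members the mean level was 9.01 in both control pools and 8.80 in both social threat pools. Itgam, which encodes the antigen of the isolation, stood at 10.47 and 11.01 in controls and at 11.64 and 11.59 under social threat, a rise of 0.88 (SE 0.13). The part of cell composition in the falls of the interferon response genes was not tested.

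**Figure D4:**
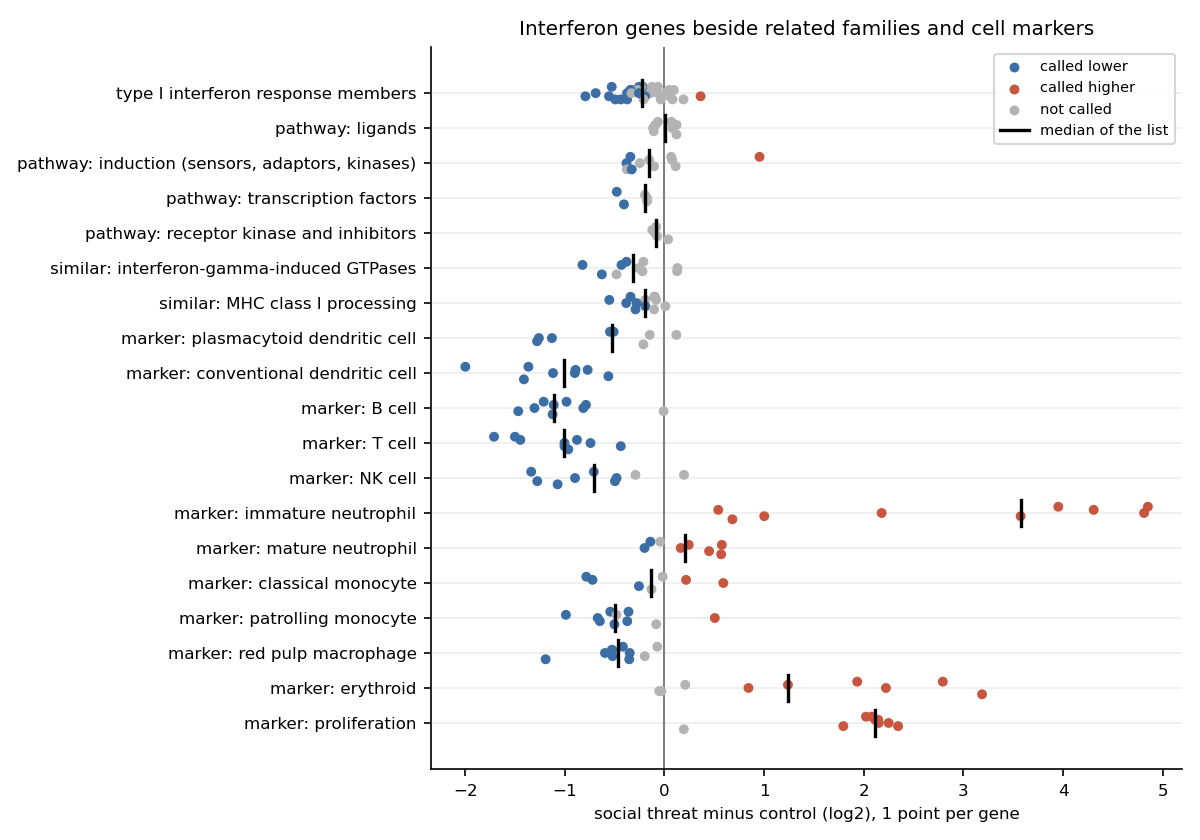
Log2 difference of social threat minus control for each measured gene (1 point per gene, coloured by its limma call) in the type I interferon response genes, other genes of the pathway, related families and lists of cell type markers, with a bar at the median of each list. The members lie between -0.79 and 0.36 around a median of -0.22, a narrower range than the immature neutrophil markers (0.54 to 4.85) and the conventional dendritic cell markers (-2.00 to -0.56).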

How the data were processed

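Each deposited value is a log2 level of 1 probe set, which the authors computed with RMA, per the submitters' processing notes, with no version or genome build given in the sources used here. RMA corrects background, normalizes between arrays and summarises probes, shrinks differences where signal is weak and leaves no detection call. Scanner files were not used here. The number of arrays (4) limits the precision, and Pearson's r was 0.9966 and 0.9981 within groups and 0.9894 to 0.9904 between them.

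Of 45037 probe sets, 34945 had exactly 1 symbol, 932 several and 9160 none in the platform annotation. All probe sets were fitted in R 4.3.3 with limma 3.58.1 (lmFit, 1 term for social threat minus control, eBayes with a variance trend, 2 residual and 7.1 prior degrees of freedom), two-sided, with Benjamini-Hochberg adjustment. Differences, SEs and 95% intervals are on the log2 scale. The code was tested on simulated data. Members, gene lists and motifs were chosen with earlier results of these data known. All measured members are named. From other lists called genes came first, in order of the absolute difference, at most 6 per list and 3 per marker list. Itgam, Siglech, Tcf4 and Pacsin1 were named besides. Alternatives changed the variance model, replicate block, normalization, scaling, dim filter, probe set choice and pools. No label gives a scan date or batch, so a batch matching the groups could not be separated from them.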

Additional observations from a re-analysis of the deposited data

How the results depend on the processing

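The count of 15 members called lower was 14 to 19 under the replicate block, quantile normalization, median centring, the filter on dim probe sets, the adjustment over 1 probe set per gene and the mean of all probe sets of a gene. The share of all genes called lower under these settings was 11.5% to 21.1%. It was highest with dim probe sets left out, the setting that gave 19 members. Without the variance trend the count was 8, where 7.62% of all genes were called lower. In that setting 0 members were called higher by limma, with 20 lower and 1 higher at an unadjusted p under 0.05. Leaving out 1 pool in turn gave 6 to 17 members called lower and 0 to 1 called higher, with 1 and 2 higher at an unadjusted p under 0.05 where limma called 0; the lone pool is then assumed to vary like the others. Calls lower were gained by Tyk2, Stat2, Oasl1 and Herc6 without dim probe sets and by Tyk2, Stat2 and Oasl1 with adjustment over 1 probe set per gene. The mean of all probe sets lost the calls of Rtp4 and Xaf1, gained Stat2 and Oasl1, called 3 members higher (Ifnar2, Oas3 and Cmpk2) and gave a median of -0.193. The median was -0.25 to -0.184 with 1 pool left out. With the pool number of the labels as a replicate block 17 members were called lower, Tyk2 and Stat2 added. Deviations of same-numbered pools correlated at 0.052 over probe sets, which cannot exclude shared processing. The labels give only the number. Of pathway genes 4 to 7 were called lower and 1 higher under all settings run.

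Directions turned only in members that were not called. With 1 pool left out in turn, Rigi ranged from -0.158 to 0.026, Ifi204 from -0.108 to 0.141 (-0.097 without social threat pool 2), Oas2 from -0.016 to 0.127, Oasl2 from -0.116 to 0.041 and Dtx3l from -0.08 to 0.048 (0.006 without control pool 2). As the mean of its probe sets Dtx3l was at 0.087. Background correction could not be varied on RMA values, and signal over background limits Mx2 and the ligands.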
